A study of Mus musculus with 12 samples.

Results

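The 10 genes described here are the NF-kB subunit genes Nfkb1, Nfkb2, Rel, Rela and Relb and the inhibitor and feedback genes Nfkbia, Nfkbid, Nfkbie, Bcl3 and Tnfaip3. They were listed by symbol, with earlier results of these data known, and are 10 of 29522 genes measured in mouse T helper 17 (Th17) cells. All 10 passed the filter on low values and are among the 13511 genes tested. The starting material was naive CD4+ T cells, taken from spleens of C57BL/6J mice with the genotype WT (wild-type). In all 4 groups a CD3/CD28 cocktail activated them, and the CytoBox Th17 supplement in the medium drove Th17 differentiation. A vehicle group was set beside a group with 200 uM ILA, a group with 0.5 uM GSK805, and a group with the 2 compounds together at those doses (GSK805+ILA). The labels do not spell out ILA, which is taken to be indole-3-lactic acid, a tryptophan metabolite of gut bacteria. GSK805 is an inhibitor of the nuclear receptor ROR gamma t, which drives Th17 identity. Each group had 3 RNA-seq libraries, labelled as biological replicates. Neither the animals behind them, their age nor the time of treatment was given in the sources used here, so p-values measure the spread between these libraries.

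NF-kB is a family of transcription factors that bind DNA as dimers. In resting cells the dimers are held in the cytoplasm by inhibitors of the IkB family, and signals from the T cell receptor and CD28 lead to loss of the inhibitor and entry of the dimer into the nucleus. Several inhibitor genes, Nfkbia and Tnfaip3 among them, are themselves targets of NF-kB, which makes a negative feedback loop. In T helper cells, c-Rel and RelA take part in activation and in Th17 differentiation.

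To show the DNA in front of these genes, the 250 bases upstream of the RefSeq start site (build GRCm38.p6, each 5′ to 3′ on the gene's strand) are printed for 4 genes that stand for the different patterns below. Bcl3 was higher with ILA, Nfkbid was lower with each compound, and Rel was lower with GSK805. Nfkbia had the highest level of the 10 in the length-scaled unit used below. RefSeq windows were matched for 8 of the 10 genes, and those of Nfkb1 and Relb are not shown. Capitals mark matches on either strand to GGGNNNNNCC, a loose form of the site that NF-kB dimers bind.
Bcl3: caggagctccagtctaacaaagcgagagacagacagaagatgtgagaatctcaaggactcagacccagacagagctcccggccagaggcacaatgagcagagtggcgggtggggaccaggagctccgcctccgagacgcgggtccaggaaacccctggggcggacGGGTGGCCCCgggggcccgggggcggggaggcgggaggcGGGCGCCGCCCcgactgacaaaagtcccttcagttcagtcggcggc
Nfkbid: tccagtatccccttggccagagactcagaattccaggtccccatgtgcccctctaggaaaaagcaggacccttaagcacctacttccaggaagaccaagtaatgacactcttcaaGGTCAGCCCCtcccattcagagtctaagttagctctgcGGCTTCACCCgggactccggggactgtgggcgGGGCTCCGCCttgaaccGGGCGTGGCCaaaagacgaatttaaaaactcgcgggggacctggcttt
Rel: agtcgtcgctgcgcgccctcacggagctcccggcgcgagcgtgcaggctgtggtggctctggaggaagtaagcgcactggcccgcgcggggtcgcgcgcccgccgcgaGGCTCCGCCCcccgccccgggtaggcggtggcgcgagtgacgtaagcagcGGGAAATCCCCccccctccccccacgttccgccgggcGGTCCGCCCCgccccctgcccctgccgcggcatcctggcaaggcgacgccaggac
Nfkbia: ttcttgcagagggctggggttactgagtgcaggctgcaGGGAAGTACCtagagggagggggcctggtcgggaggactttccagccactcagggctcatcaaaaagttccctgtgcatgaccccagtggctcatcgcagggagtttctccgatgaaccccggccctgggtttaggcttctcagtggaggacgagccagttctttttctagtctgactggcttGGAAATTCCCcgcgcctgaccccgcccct
The windows lie at chr7:19822756-19823005 (minus strand) for Bcl3, chr7:30421481-30421730 (plus strand) for Nfkbid, chr11:23770970-23771219 (minus strand) for Rel and chr12:55492648-55492897 (minus strand) for Nfkbia. As GENCODE draws the genes, 15 bases of the Bcl3 window lie inside the gene. Among the windows not printed, so do 58 bases for Rela, 247 of the 250 for Tnfaip3 and the whole window for Nfkb2.

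A match to the loose pattern was found in the windows of 8 of the 8 genes, and in 45.8% of 32851 RefSeq windows of the same length. Bcl3 had matches at 85 to 76 and at 46 to 36 bases before the start site. Nfkbia had them at 212 to 203 and at 29 to 20 bases, and the latter reads GGAAATTCCC on the gene's strand. In Rel, overlapping matches on both strands covered bases 92 to 82. A narrower pattern, GGAANTNCC, was chosen after the windows had been seen. It was found in 3.92% of all windows and in 4 of the 8, those of Rel and Nfkbia and the windows of Nfkb2 and Tnfaip3 inside their genes. The core that the aryl hydrocarbon receptor (AhR), a sensor of tryptophan metabolites, binds is GCGTG. It occurred in 28.2% of windows and in 4 of the 8 (Rel, Nfkbid, Nfkbie and Tnfaip3). AGGTCA, the sequence that ROR receptors bind, occurred in 14% of windows and in 1 of the 8, that of Nfkbid, at 136 to 131 bases before the start and overlapping a match to the loose pattern. The GC content was 67.6% for Bcl3, 56.4% for Nfkbid, 77.6% for Rel and 59.2% for Nfkbia, against a median of 52.4% over all windows. A match describes these letters and is not a measured binding site.

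Values are FPKM (fragments per kilobase of exon, scaled to the reads of the library), a unit that is scaled to gene length. The lengths that return whole reads join all annotated exons of a gene, 12061 bases for Nfkb1 and 1610 for Nfkbia. Levels of different genes thus compare only as far as those lengths fit the transcripts present, which was not tested. Reads recovered from the FPKM values came to 17.8 to 23.4 M per library, and a member's count in a library lay between 204 and 49343 reads. Nfkb1 had 22196 to 49343 reads in a library and Nfkbia 8660 to 12996. The 5 T cell markers were above 1 FPKM in every group. Their summed level was 304 to 313 FPKM with vehicle, 518 to 555 with ILA, 333 to 348 with GSK805 and 492 to 517 with both. The summed level of 5 Th17 markers was 1220 to 1510, 435 to 479, 354 to 405 and 173 to 199 FPKM in the same order. Of the markers of other cells, those of CD8 T and NK cells came to 17.7 to 21.4 FPKM with vehicle, 33.7 to 36.6 with ILA, 13.9 to 16.2 with GSK805 and 18.6 to 20.1 with both. The defining gene Cd8a stayed at 0.219 FPKM or less in the group means, and most of that sum was Klrd1. The other CD8 gene, Cd8b1, held 4.06 FPKM with vehicle, 1.27 with ILA, 4.02 with GSK805 and 1.7 with both. With ILA it was thus lower, whereas Klrd1 was higher (15.3 FPKM with vehicle, 33.7 with ILA). Summed levels of 4 measured B cell markers (1.47 to 2.83 FPKM), 5 myeloid markers (2.27 to 4.8 FPKM), 4 erythroid and platelet markers (1.29 to 2.85 FPKM) and 3 stromal markers (up to 0.104 FPKM) were low in every library. Adgre1 was listed at 0 in the vehicle libraries, Klrb1c in the GSK805 libraries, Pf4 in both groups with ILA, and Cdh5 in every group but GSK805. The part of these shifts in the changes below was not tested.

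With vehicle, Nfkbia had the highest FPKM of the 10 (352 ± 13 FPKM, SD, n = 3, as for each mean ± SD below), and Bcl3 had the lowest (5.86 ± 0.665 FPKM). Between them came Nfkb1 (185 ± 0.743), Tnfaip3 (165 ± 0.437), Nfkb2 (156 ± 7.04), Rela (145 ± 5.44), Nfkbid (133 ± 8.85), Relb (39.3 ± 0.575), Rel (29.6 ± 1.39) and Nfkbie (10.3 ± 1.25 FPKM). Of the neighbours in this order, the libraries of Tnfaip3 and Nfkb2 overlapped and no other pair did. With ILA the ranges of each neighbouring pair among Nfkb2, Tnfaip3, Rela and Nfkb1 overlapped, and Bcl3 passed Nfkbie. With GSK805 alone Nfkb2, Rela, Nfkb1 and Tnfaip3 overlapped in the same way, and Bcl3 was again the lowest of the 10. With both compounds Rela and Nfkb2 overlapped, and Bcl3 again lay above Nfkbie.

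**Figure D1:**
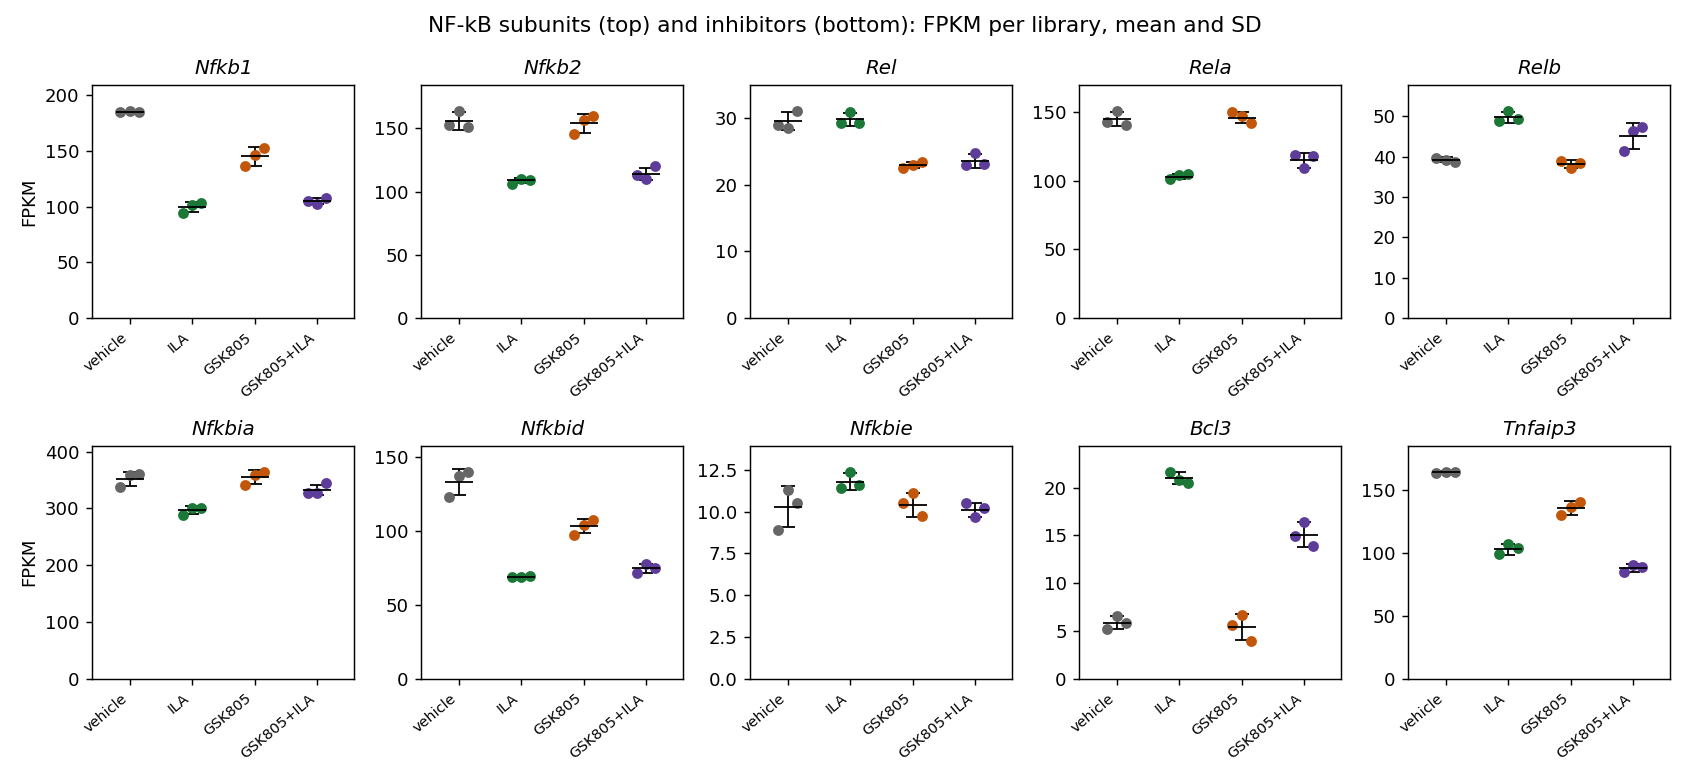
FPKM of the 10 genes in each of the 12 libraries (points), with the group mean and SD (bars), each on an axis that starts at 0. Nfkb1, Nfkbid and Tnfaip3 step down from vehicle to GSK805 and again to the groups with ILA, whereas Bcl3 sits between 3.92 and 6.68 FPKM without ILA and between 13.9 and 21.7 FPKM with it.

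ILA alone changed 8 of the 10 genes: 6 fell, namely Nfkb1, Nfkb2, Rela, Nfkbia, Nfkbid and Tnfaip3, and Relb and Bcl3 rose. This comparison with vehicle asks what the tryptophan metabolite does to Th17 cells. The background was wide, since 24% of all genes tested were called lower and 33.9% higher (limma, Benjamini-Hochberg adjusted p below 0.05, as for each call below). The median change of the 10 was -0.36 on the log2(FPKM + 1) scale, against 0.06 over all genes. Changes on that scale understate those of low genes. In bulk RNA, fewer cells that carry a transcript and less of it per cell cannot be told apart. Centring each library on its median gene shifted the median change of all genes by -0.14, both for ILA and for GSK805+ILA against vehicle. It kept the 8 calls in their direction and added a call for Rel.

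GSK805 alone lowered 4 of the 10, Nfkb1, Rel, Nfkbid and Tnfaip3, and raised 0. Of all genes, 7.08% were called lower and 15.7% higher with GSK805. The median change was -0.08 for the 10 and 0.05 for all genes. With GSK805+ILA, 6 of the 10 fell against vehicle (Nfkb1, Nfkb2, Rel, Rela, Nfkbid and Tnfaip3) and 2 rose (Relb and Bcl3), where 20.3% of all genes were called lower and 31.8% higher. The median change was then -0.32 for the 10 and 0.06 for all genes. These 3 comparisons share the vehicle libraries.

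**Figure D2:**
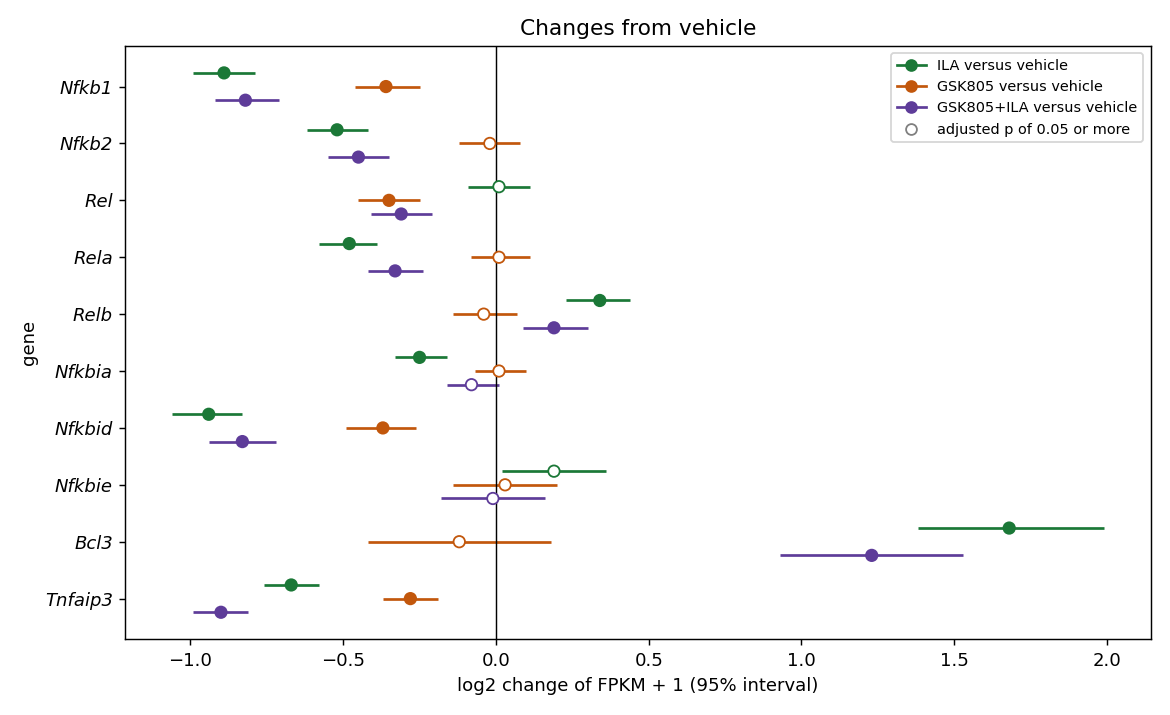
Change of each gene from vehicle (x axis, log2 of FPKM + 1, with 95% intervals) for ILA, GSK805 and GSK805+ILA, where open circles have an adjusted p of 0.05 or more. The changes run from a fall by 0.94 (Nfkbid, ILA) to a rise of 1.68 (Bcl3, ILA), and the 4 filled GSK805 circles lie between -0.28 and -0.37.

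Nfkb1 (ENSMUSG00000028163, chromosome 3, 135584655 to 135691547, minus strand, GRCm38) encodes a precursor that is cut to a short subunit without an activation domain of its own. The vehicle libraries held 185, 186 and 185 FPKM and the ILA libraries 94.6, 101 and 103. The GSK805 libraries held 136, 146 and 153 FPKM, and those with both compounds 105, 102 and 108. Each treated group lay below vehicle without overlap, and the groups with ILA were the lowest. Nfkb1 fell by 0.89 ± 0.05 (SE) on the log2 scale with ILA (adjusted p = 3.8e-08), by 0.36 ± 0.05 with GSK805 (adjusted p = 0.00041) and by 0.82 ± 0.05 with both (adjusted p = 9.3e-08). A gene model on the same strand, Gm43430, overlaps Nfkb1 and held at most 1.55 FPKM.

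Nfkb2 (ENSMUSG00000025225, chromosome 19, 46304320 to 46312385, plus strand) encodes the precursor of the other short subunit, which in its uncut form holds RelB in the cytoplasm. Its libraries held 153, 164 and 151 FPKM with vehicle, 106, 110 and 109 with ILA, 146, 157 and 160 with GSK805, and 113, 110 and 120 with both. The groups split by ILA: all 6 libraries with ILA lay below all 6 without it. Nfkb2 fell by 0.52 ± 0.05 with ILA (adjusted p = 2.6e-06) and by 0.45 ± 0.05 with both (adjusted p = 1.1e-05). With GSK805 alone the difference was -0.02, with a 95% interval from -0.12 to 0.08 (adjusted p = 0.788). Psd and AC114539.1 overlap Nfkb2 on the opposite strand, and the sources used here do not say whether strand was used in counting. Psd itself held 24.9 FPKM with vehicle, 11.4 with ILA, 19.9 with GSK805 and 12.9 with both. AC114539.1 held 21.8 FPKM with vehicle, 19.7 with ILA, 20.3 with GSK805 and 20.6 with both.

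Rela (ENSMUSG00000024927, chromosome 19, 5637483 to 5648130, plus strand) encodes a subunit with an activation domain. It held 143, 151 and 141 FPKM with vehicle, 101, 104 and 105 with ILA, 150, 147 and 142 with GSK805, and 119, 109 and 118 with both. As for Nfkb2, the libraries with ILA were low and those with GSK805 alone overlapped vehicle. Rela fell by 0.48 ± 0.04 with ILA (adjusted p = 1.8e-06) and by 0.33 ± 0.04 with both (adjusted p = 5.4e-05), and the difference with GSK805 was 0.01 (95% interval -0.08 to 0.11).

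Rel (ENSMUSG00000020275, chromosome 11, 23736847 to 23770970, minus strand) encodes c-Rel, a subunit prominent in lymphocytes, and its upstream window is printed above. The vehicle libraries held 29, 28.5 and 31.1 FPKM and the ILA libraries 29.2, 30.9 and 29.3. The GSK805 libraries held 22.5, 22.9 and 23.4 FPKM and those with both compounds 22.9, 24.8 and 23.1. The libraries with GSK805 lay below those without it, whether or not ILA was present. Rel fell by 0.35 ± 0.05 with GSK805 (adjusted p = 0.00036) and by 0.31 ± 0.05 with both (adjusted p = 0.00014). The difference with ILA alone was 0.01 ± 0.05 (95% interval -0.09 to 0.11, adjusted p = 0.839), and it became -0.12 (adjusted p = 0.036) when libraries were centred on their median gene.

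Relb (ENSMUSG00000002983, chromosome 7, 19606217 to 19629438, minus strand) encodes the activating subunit of the noncanonical pathway. It held 39.8, 39.3 and 38.6 FPKM with vehicle, 48.8, 51.4 and 49.3 with ILA, 38.9, 37.2 and 38.5 with GSK805, and 41.5, 46.5 and 47.4 with both. The libraries with ILA were above those without it. Relb rose by 0.34 ± 0.05 with ILA (adjusted p = 9.7e-05) and by 0.19 ± 0.05 with both (adjusted p = 0.00524). The call with both compounds depended on the scaling: the change was 0.06 (adjusted p = 0.346) after median centring and -0.008 (adjusted p = 0.902) after trends with GC content and length were removed. The rise with ILA alone kept its call but was smaller, at 0.20 (adjusted p = 0.0038) and 0.13 (adjusted p = 0.0393) in the same order. With GSK805 alone the difference was -0.04 (95% interval -0.14 to 0.07).

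Summed over the 5 subunit genes, the level was 555 ± 12 FPKM with vehicle, 391 ± 9.3 with ILA, 506 ± 12 with GSK805 and 403 ± 12 with both. The lowest vehicle library (547) was above the highest GSK805 library (517), and all 6 libraries with ILA lay between 380 and 416 FPKM. The make-up of the sum also differed. Nfkb1 held 33.4 ± 0.59% of it with vehicle, 25.5 ± 0.6% with ILA, 28.6 ± 1.1% with GSK805 and 26 ± 0.1% with both. Relb held 7.07 ± 0.17% with vehicle, 12.7 ± 0.21% with ILA, 7.55 ± 0.31% with GSK805 and 11.2 ± 0.76% with both. The share of Rel was 5.33 ± 0.34% with vehicle, 7.62 ± 0.19% with ILA, 4.53 ± 0.031% with GSK805 and 5.86 ± 0.41% with both. The ratio of Relb to Rela was 0.271 ± 0.0096 with vehicle, 0.482 ± 0.013 with ILA, 0.261 ± 0.0092 with GSK805 and 0.392 ± 0.04 with both, and its libraries with and without ILA did not overlap. These shares and ratios are descriptions of transcript levels, depend on the gene lengths behind the FPKM, and say nothing of the proteins.

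**Figure D3:**
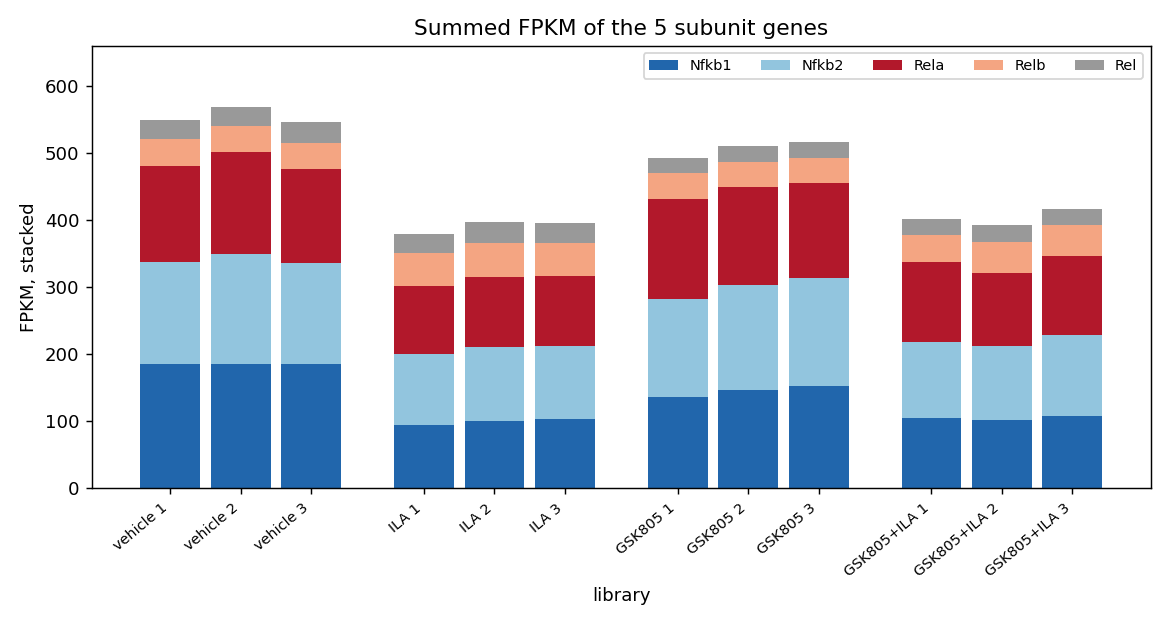
Stacked FPKM of the 5 subunit genes in each library (y axis, from 0). The stacks reach 547 to 569 FPKM with vehicle and 380 to 397 FPKM with ILA, where the Nfkb1 section shortens and the Relb section lengthens.

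Among the inhibitors, Nfkbia (ENSMUSG00000021025, chromosome 12, 55489410 to 55492647, minus strand) encodes IkB alpha, the inhibitor that is degraded and resynthesised at each round of activation. It held 337, 359 and 360 FPKM with vehicle, 289, 300 and 301 with ILA, 342, 359 and 365 with GSK805, and 328, 328 and 344 with both. The ILA libraries were the lowest, and the other groups overlapped. Nfkbia fell by 0.25 ± 0.04 with ILA (adjusted p = 0.0002), a call lost under quantile normalization (-0.10, adjusted p = 0.0552). With both compounds the difference from vehicle was -0.08 ± 0.04 (adjusted p = 0.105), which became 0.17 (adjusted p = 0.0043) under quantile normalization and -0.22 (adjusted p = 0.00126) under median centring. The ratio of Nfkbia to Rela was 2.43 ± 0.11 with vehicle, 2.87 ± 0.021 with ILA, 2.43 ± 0.15 with GSK805 and 2.89 ± 0.13 with both.

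Nfkbie (ENSMUSG00000023947, chromosome 17, 45555703 to 45563169, plus strand) encodes IkB epsilon, another cytoplasmic inhibitor. It held 8.89, 11.3 and 10.5 FPKM with vehicle, 11.4, 12.4 and 11.6 with ILA, 10.5, 11.1 and 9.71 with GSK805, and 10.5, 9.7 and 10.2 with both. The ILA libraries were just above the vehicle libraries, and no comparison passed the test. The difference was 0.19 ± 0.08 with ILA (adjusted p = 0.0534), 0.03 with GSK805 (95% interval -0.14 to 0.20) and -0.01 with both (95% interval -0.18 to 0.16). Over 16 alternatives the ILA difference ranged from 0.01 to 0.26, and 3 of them gave a call. The largest was without vehicle replicate 2 (0.26, adjusted p = 0.0156), and without vehicle replicate 1 it was 0.10 (adjusted p = 0.209). It was 0.11 (adjusted p = 0.236) with quantile normalization and 0.06 (adjusted p = 0.568) with median centring. With GC and length trends removed it was 0.01 (adjusted p = 0.908).

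Nfkbid (ENSMUSG00000036931, chromosome 7, 30421732 to 30428746, plus strand) encodes a nuclear IkB protein that binds NF-kB on DNA and takes part in Th17 differentiation. Its vehicle libraries held 123, 137 and 140 FPKM and its ILA libraries 68.4, 68.5 and 69.6. The GSK805 libraries held 97.4, 104 and 107 FPKM and those with both compounds 71.5, 77.5 and 74.6. The 4 groups did not overlap, with vehicle the highest and ILA the lowest. Nfkbid fell by 0.94 ± 0.05 with ILA (adjusted p = 5.2e-08), by 0.37 ± 0.05 with GSK805 (adjusted p = 0.00056) and by 0.83 ± 0.05 with both (adjusted p = 1.9e-07).

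Bcl3 (ENSMUSG00000053175, chromosome 7, 19808462 to 19822770, minus strand) encodes a nuclear IkB protein that binds dimers of the short subunits and can activate or repress their targets. It held 5.23, 6.56 and 5.8 FPKM with vehicle, 21.7, 20.8 and 20.5 with ILA, 5.66, 6.68 and 3.92 with GSK805, and 14.9, 16.4 and 13.9 with both. The groups with and without ILA lay far apart, and the combined group lay below ILA alone. Bcl3 rose by 1.68 ± 0.14 with ILA, or 3.22-fold in FPKM + 1 (adjusted p = 1.3e-06), and by 1.23 ± 0.14 with both (adjusted p = 2.1e-05). With GSK805 alone the difference was -0.12 (95% interval -0.42 to 0.18). Per 100 FPKM of Nfkb1, Bcl3 held 3.16 ± 0.35 FPKM with vehicle, 21.1 ± 1.6 with ILA, 3.77 ± 1.1 with GSK805 and 14.4 ± 1.6 with both. Gm16174 and Gm16175 overlap Bcl3 on the opposite strand. Gm16175 held 6.48 FPKM with vehicle, 22.1 with ILA, 7.41 with GSK805 and 13.2 with both, from at most 131 reads in a library. Without strand in the counting, reads of Bcl3 and of this gene cannot be told apart.

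Tnfaip3 (ENSMUSG00000019850, chromosome 10, 19000910 to 19015657, minus strand) encodes an enzyme that edits ubiquitin chains and ends signalling upstream of the kinases that target IkB. It held 164, 165 and 165 FPKM with vehicle, 98.9, 107 and 104 with ILA, 130, 137 and 141 with GSK805, and 84.6, 90.2 and 89.2 with both. Each group was separate from the others, and both compounds together gave the lowest level. Tnfaip3 fell by 0.67 ± 0.04 with ILA (adjusted p = 1.2e-07), by 0.28 ± 0.04 with GSK805 (adjusted p = 0.00082) and by 0.90 ± 0.04 with both (adjusted p = 2.2e-08).

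The comparison of GSK805+ILA with GSK805 alone asks whether the ILA changes are seen when ROR gamma t is inhibited. Of the 10 genes, 5 fell (Nfkb1, Nfkb2, Rela, Nfkbid and Tnfaip3) and 2 rose (Relb and Bcl3), where 17.5% of all genes were called lower and 22% higher. Bcl3 rose by 1.35 ± 0.14 (adjusted p = 2e-05) and Tnfaip3 fell by 0.62 ± 0.04 (adjusted p = 8.7e-07). Relb rose by 0.23 ± 0.05 (adjusted p = 0.00262), a call lost once trends with GC content and length were removed (0.11, adjusted p = 0.0922). Nfkb1 fell by 0.46, Nfkbid by 0.46, Nfkb2 by 0.43 and Rela by 0.34. The differences of Rel (0.04), Nfkbia (-0.09) and Nfkbie (-0.04) did not pass the test.

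The reverse comparison, GSK805+ILA against ILA, asks what GSK805 adds. Rel fell by 0.32 ± 0.05 (adjusted p = 0.0008), Tnfaip3 by 0.23 ± 0.04 (adjusted p = 0.00327) and Bcl3 by 0.46 ± 0.14 (adjusted p = 0.0398), where 8.64% of all genes were called lower. Rela rose by 0.16 ± 0.04 (adjusted p = 0.024) and Nfkbia by 0.17 ± 0.04 (adjusted p = 0.0126), where 9.92% of all genes were called higher. The calls of Rel and Tnfaip3 held in all alternatives run. That of Bcl3 was lost without any of the 3 ILA libraries or without GSK805+ILA replicate 1 or 3, with adjusted p from 0.0752 to 0.129. That of Rela was lost without ILA replicate 1 or 2 or without GSK805+ILA replicate 1 or 3, with adjusted p from 0.0609 to 0.0882. Nfkbia lost its call without ILA replicate 1 (adjusted p = 0.051) or GSK805+ILA replicate 3 (adjusted p = 0.0535).

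The interaction term asks whether the ILA change differs when GSK805 is present. It passed for 2 of the 10 genes, both with a positive sign, where 5.15% of all genes were called higher and 8.7% lower. For Nfkb1 the ILA and GSK805 changes summed to -1.24 and the combined change was -0.82, an interaction of 0.43 ± 0.07 (adjusted p = 0.00277). For Nfkbid the sum was -1.32 and the combined change -0.83, an interaction of 0.49 ± 0.07 (adjusted p = 0.00254). In both genes ILA lowered the level less in the presence of GSK805. For Tnfaip3 the sum of -0.94 and the combined change of -0.90 differed by 0.05 (95% interval -0.08 to 0.17, adjusted p = 0.644). The interaction of Bcl3 was -0.34 (95% interval -0.76 to 0.09, adjusted p = 0.274). Over 21 alternatives it ranged from -0.52 to -0.2, with adjusted p up to 0.491. Only 1 of them gave a call, that without GSK805 replicate 3, the library with the lowest Bcl3 (-0.52, adjusted p = 0.0273). The interaction terms of the 10 genes had a median of 0.07, against -0.05 over all genes.

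**Figure D4:**
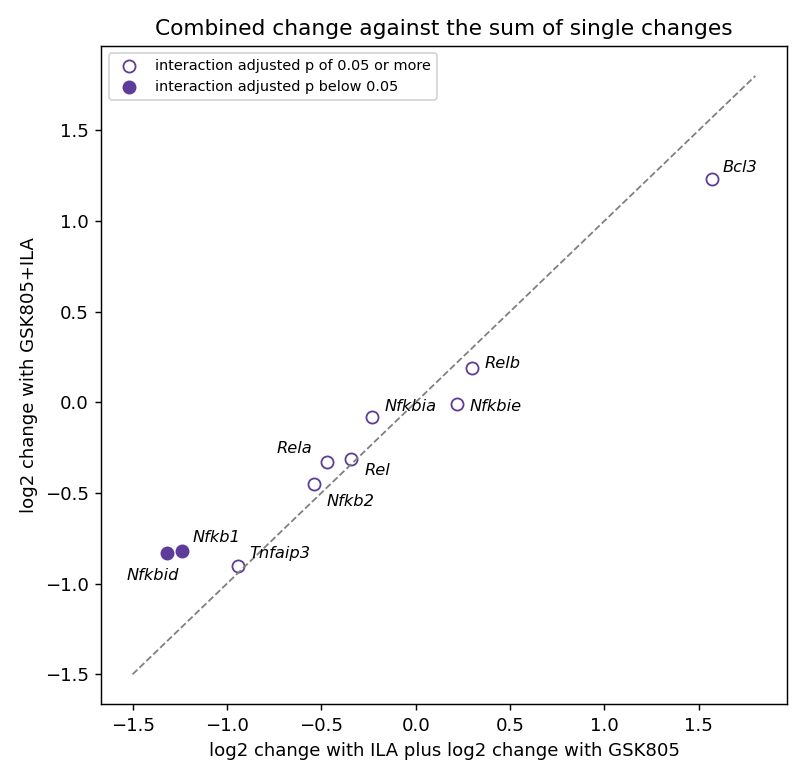
Log2 change with GSK805+ILA (y axis) against the sum of the changes with ILA and with GSK805 (x axis), 1 point per gene, where the dashed line marks equal values and filled points have an interaction adjusted p below 0.05. Nfkb1 and Nfkbid sit above the line at sums of -1.24 and -1.32, and Tnfaip3 lies close to it at -0.94.

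Other genes of the pathway were counted in lists. The counts below stand against all genes tested, of which 33.9% rose and 24% fell with ILA, 15.7% rose and 7.08% fell with GSK805, and 31.8% rose and 20.3% fell with both. Of 7 other IkB family genes and nuclear cofactors, 3 rose and 3 fell with ILA, 1 rose and 2 fell with GSK805, and 3 rose and 2 fell with both. Their median changes were -0.08, 0.06 and 0.01. Nfkbib, which encodes IkB beta, held 98 ± 4.29 FPKM with vehicle, 47.8 ± 1.8 with ILA, 79.5 ± 4.66 with GSK805 and 55.2 ± 3.38 with both. It fell in each treated group, by 1.02 with ILA (adjusted p = 5.4e-08), by 0.30 with GSK805 and by 0.82 with both. Pdlim2, which encodes a ubiquitin ligase for nuclear RelA, rose from 7.14 ± 0.332 FPKM to 16.2 ± 0.155 with ILA (1.08, adjusted p = 8.3e-08), to 9.45 ± 0.811 with GSK805 and to 14.6 ± 0.941 with both. Nfkbiz, a nuclear IkB gene with a known part in Th17 cells, fell from 70.7 ± 6.02 to 49.6 ± 4.04 FPKM with GSK805 (by 0.50, adjusted p = 0.00056). It also fell by 0.21 with ILA, a call lost in some alternatives, and by 0.36 with both.

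In the noncanonical list of 12 genes, 9 passed the filter, and Ltbr, Tnfrsf11a and Tnfrsf13c did not. With ILA 6 rose and 2 fell, with GSK805 3 rose and 1 fell, and with both 3 rose and 2 fell. The counts with both and the falls with ILA were close to the shares over all genes. The rises were above those shares with ILA (33.9% of all genes) and with GSK805 (15.7%). In the alternatives run, 2 to 6 rose with ILA and 1 to 4 with GSK805. After median centring 2 rose and 2 fell with ILA. Ltb, which encodes a lymphotoxin subunit, rose from 86 ± 4.57 FPKM to 244 ± 14.2 with ILA (1.50, adjusted p = 9.7e-09), to 106 ± 9.36 with GSK805 and to 198 ± 4.53 with both. Tnfsf11, which encodes the ligand RANKL, held 31.3 ± 2.75 FPKM with vehicle, 7.81 ± 1.26 with ILA, 21.2 ± 5.19 with GSK805 and 9.44 ± 1.12 with both. It fell by 1.88 with ILA (adjusted p = 2.8e-06) and fell by 1.63 with both (adjusted p = 1.1e-05). Its fall by 0.56 with GSK805 (adjusted p = 0.0308) lost the call when vehicle replicate 2 or 3 or GSK805 replicate 1 or 2 was left out (adjusted p from 0.0723 to 0.0952).

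Of 18 ubiquitin editors and feedback genes, 15 were tested, and Tnip3, Usp18 and Tifa were below the filter. With ILA 6 rose and 7 fell, with GSK805 5 rose and 0 fell, and with both 7 rose and 7 fell. In the alternatives run, 2 to 5 rose and 0 to 3 fell with GSK805, and 3 to 7 rose and 5 to 7 fell with both. Tnip2, which encodes a binding partner of TNFAIP3, rose from 22.8 ± 1.12 to 34.8 ± 1.54 FPKM with ILA (0.59, adjusted p = 6e-07). It also rose by 0.21 with GSK805 and by 0.47 with both. Rnf11, which encodes a ligase that works with TNFAIP3, fell from 27.5 ± 1.27 to 15.3 ± 1.98 FPKM with ILA (by 0.82, adjusted p = 6.6e-06) and to 16.8 ± 1.46 with both. N4bp1, which encodes a suppressor of NF-kB signalling, rose from 6.76 ± 0.278 to 9.31 ± 0.755 FPKM with GSK805 (0.41, adjusted p = 0.00056) and fell to 5.73 ± 0.135 with ILA (by 0.20, adjusted p = 0.00908). Otulin, which encodes an enzyme that cuts linear ubiquitin chains, rose from 19.5 ± 0.994 to 31.7 ± 4.79 FPKM with both (0.66, adjusted p = 0.0002). It also rose by 0.47 with ILA.

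Of 28 genes listed as NF-kB targets in T cells, 26 were tested, and Cxcl10 and Plau were below the filter. With ILA 4 rose and 18 fell, with a median change of -0.51 against 0.06 over all genes. With GSK805 4 rose, close to the share over all genes, and 5 fell (median -0.11), and with both 4 rose and 16 fell (median -0.33). The number that fell with ILA was between 17 and 21 in the alternatives run. Ccl4, a chemokine gene, held 86.3 ± 17.3 FPKM with vehicle, 17.2 ± 0.504 with ILA, 58.3 ± 3.15 with GSK805 and 24.7 ± 1.78 with both. It fell by 2.24 with ILA (adjusted p = 3.8e-08), by 0.54 with GSK805 (adjusted p = 0.00612) and by 1.75 with both (adjusted p = 3e-07). Csf2, which encodes the cytokine GM-CSF, fell from 32.2 ± 9 to 12.2 ± 3.04 FPKM with GSK805 (by 1.32, adjusted p = 0.00627). It also fell by 1.09 with ILA and by 1.46 with both. Against the direction of most of the list, Tnfrsf18, which encodes the costimulatory receptor GITR, rose from 21.4 ± 1.48 to 50.8 ± 1.14 FPKM with ILA (1.21, adjusted p = 1.3e-08). Icam1, an adhesion gene, rose from 5.62 ± 0.453 to 8.39 ± 0.547 FPKM with GSK805 (0.50, adjusted p = 0.00266). It also rose by 0.37 with ILA, a call lost in some alternatives, and by 0.72 with both.

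**Figure D5:**
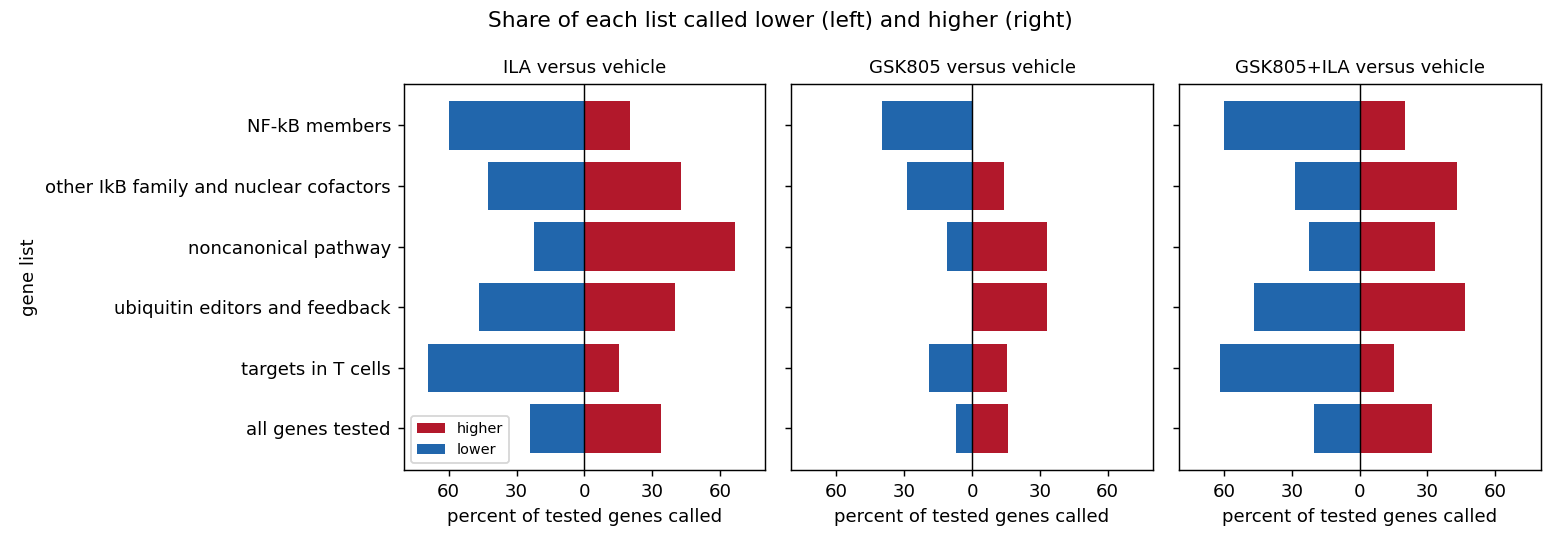
Share of the tested genes of each list called lower (left of 0) and higher (right of 0), in percent, for each treated group against vehicle, with all genes tested at the bottom. The NF-kB members and the T cell targets have their longest bars on the lower side with ILA and with GSK805+ILA, whereas all genes tested have 33.9% and 31.8% on the higher side.

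The pattern of Bcl3, the member with the widest range of group means (1.80 on the log2 scale), was most like that of Npc2 (Pearson r = 0.992), Myo1f (0.990) and Myo1g (0.988) among 7340 protein-coding genes over the 12 libraries. Npc2 held 43.8 ± 2 FPKM with vehicle, 73.6 ± 1.99 with ILA, 41 ± 1.99 with GSK805 and 64.3 ± 3.49 with both. Myo1f held 1.47 ± 0.144, 11 ± 0.171, 1.18 ± 0.216 and 6.23 ± 0.273 FPKM in the same order. These genes thus shared the order of the 4 groups with Bcl3, and 279 genes had an r above 0.95 with it. Nfkbid, with the next widest range (0.94), was most like Psd, Ppp1r15a and Cd40lg (r = 0.990 each), and 260 genes were above 0.95. Cd40lg, which encodes the CD40 ligand of activated helper T cells, held 43.1 ± 3.52 FPKM with vehicle, 14.1 ± 0.928 with ILA, 29.8 ± 4.28 with GSK805 and 14.9 ± 2.24 with both. Psd is the gene that overlaps Nfkb2. Since the libraries fall into 4 groups, these correlations mostly restate the group means.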

How the data were processed

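The authors deposited 1 table of FPKM per gene and library, for 12 libraries in 4 groups of 3. FastQC 0.11.2, Bowtie and the build mm10 are named per the submitters' processing notes. The Bowtie version, counting program, annotation and use of strand were not given in the sources used here. With GENCODE vM21 gene lengths on GRCm38 (mm10), 98.6% to 98.8% of values fell within 0.1 of a whole read count, which gave the depths. FPKM cannot show changes in total RNA per cell.

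Values were transformed to log2(FPKM + 1), and a gene was tested where any group's mean reached 1 FPKM. The fit used limma 3.58.1 (R 4.3.3) on the 12 libraries, with a mean for each group and trend and robust moderation of the variance. The 5 comparisons of pairs of groups and the interaction were its contrasts, with Benjamini-Hochberg adjustment over all genes tested in each. A gene was called below an adjusted p of 0.05. Lists were described by counts and medians, with no test of their own. The fit was tested on simulated data.

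All 10 members are named. From each other list, and in each comparison with vehicle, the called genes with the largest rise and fall are named, and the 3 genes most like each of the 2 members with the widest range. Candidates for likeness were protein-coding genes whose highest group mean reached 5 FPKM. The report names the genes of the other lists that this rule picks, with counts for the rest, and 1 further list is not reported here. Marker lists covered T, Th17, B, CD8 T and NK, myeloid, erythroid and platelet, and stromal cells. Members and lists were chosen with earlier results of these data known. Promoters are RefSeq windows, searched on both strands. Alternatives were other variance, normalization, filter, pseudocount and sample choices, a replicate block, voom on recovered reads, removal of GC and length trends, and leaving out each library. Their use on the other lists was added after the data were seen. Tables and plots used Python 3.11.15, numpy 2.4.6, pandas 2.3.3 and matplotlib 3.10.9.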

Additional observations from a re-analysis of the deposited data

Results flagged for a closer look

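The change with ILA differed between cells with and without GSK805 for 2 of the 10 genes, by the interaction term of the model. For Nfkb1 the difference was 0.43 on the log2 scale (limma, adjusted p = 0.00277), and for Nfkbid it was 0.49 (adjusted p = 0.00254). Both calls held in all 21 alternatives run, with values from 0.34 to 0.53 for Nfkb1 and from 0.45 to 0.56 for Nfkbid. Groups of 3 libraries were not searched for outlying samples.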

How the results depend on the processing

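Of the 34 calls on the 10 genes over the 6 comparisons, 28 held their direction and side of the threshold in every alternative run. The other 6 were Nfkbia with ILA, Relb with GSK805+ILA against vehicle and against GSK805, and Rela, Nfkbia and Bcl3 with GSK805+ILA against ILA. Of 1010 alternative values for the 10 genes, 934 kept direction and call, 25 gained a call and 19 lost one with the same sign, and 32 changed sign, of which 2 gained a call and 1 lost it. For named genes of the other lists, 32 of 35 calls held, and those lost in some were Icam1 and Nfkbiz with ILA and Tnfsf11 with GSK805. The count of 0 members raised by GSK805 became 1 (Nfkbia) under quantile normalization.

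The members counted as higher fell to 1 for GSK805+ILA against vehicle with median centring and with GC and length trends removed, and to 1 against GSK805 with those trends removed. Against ILA it was 1 with no filter and 1 with only the groups compared, and 0 to 2 when each library was left out. It was 0 without ILA replicate 1 or GSK805+ILA replicate 3, and 1 without ILA replicate 2 or GSK805+ILA replicate 1. All genes called in that comparison numbered 1604 to 2165 with a library left out, against 2507 with all, and the lowest was without GSK805+ILA replicate 3. For the interaction, 4 members were higher with median centring and 4 with GC and length trends removed. All genes called were 1067 with no filter and 1201 to 1974 with a library left out, against 1871. Of these 1232 was without vehicle replicate 3, 1206 without GSK805 replicate 1 and 1201 without GSK805+ILA replicate 3. Members called lower were 0 to 1 there, the 1 being Bcl3 without GSK805 replicate 3. Bcl3 against ILA lost its call without trend and robust moderation (adjusted p = 0.0515), with no filter (0.101) and with a pseudocount of 0.1 (0.0603), and Rela with no filter (0.0534) and with only the groups compared (0.0512). The cause was not tested.

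The share of all calls that were higher moved with the scaling. For ILA it was 58.6%, against 46.3% with quantile normalization, 40.9% with median centring and 44.8% with GC and length trends removed. In the same order it was 68.9%, 55.9%, 40.3% and 47.1% for GSK805, 61.1%, 47.8%, 40.2% and 45% for GSK805+ILA, 55.7%, 46.8%, 41.6% and 43.9% for GSK805+ILA against GSK805, and 37.2%, 46%, 63.2% and 58.2% for the interaction.

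Signs changed as follows. Rel with ILA was -0.12 with median centring and -0.03 with GC and length trends removed. Rel against GSK805 was -0.02 with median centring, and its interaction was -3.2e-06 with quantile normalization, where that of Tnfaip3 was -0.02. With GSK805, quantile normalization gave 0.05 for Nfkb2 and -0.04 for Nfkbie. Median centring gave -0.06 for Rela, -0.06 for Nfkbia and -0.05 for Nfkbie, and removal of GC and length trends gave -0.05 for Rela and -0.03 for Nfkbie. With GSK805+ILA, Nfkbia was 0.17 with quantile normalization and Relb was -0.008 with GC and length trends removed. With each library left out, Rel with ILA ranged from -0.01 to 0.05 and its interaction from -0.0083 to 0.05. With GSK805 the ranges were -0.02 to 0.04 for Nfkbia, -0.06 to 0.10 for Nfkbie, -0.05 to 0.02 for Nfkb2, -0.0063 to 0.04 for Rela and -0.26 to 0.06 for Bcl3. Nfkbie ranged from -0.10 to 0.06 with GSK805+ILA against vehicle and from -0.08 to 0.0053 against GSK805.

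No pairing of same-numbered libraries was evident, though this check cannot exclude it. Over 18 same-number pairs the correlation of deviations was -0.08 to 0.08, and other pairs gave -0.06 to 0.08. Of 12 libraries, 6 correlated best with their own number. With the replicate block, all genes called numbered 7793 for ILA, 3081 for GSK805, 7066 for GSK805+ILA, 5343 against GSK805, 2513 against ILA and 1975 for the interaction. The block gave Nfkbia a call for GSK805+ILA against vehicle (-0.08, adjusted p = 0.0317), against GSK805 (adjusted p = 0.0201) and for the interaction (adjusted p = 0.0292), and changed no other call. Each member had at least 204 reads in each library.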
